A study of Homo sapiens with 6 samples.

Results

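The HOX cluster genes were examined in BT549 cells, a human breast cancer line of basal-like and mesenchymal character, after treatment with AS1842856. This small molecule, called the inhibitor below, is reported to hinder direct DNA binding by the transcription factor FOXO1. The effect of losing FOXO1 itself was not measured here. Members were the protein-coding genes whose symbol is HOX followed by a cluster letter from A to D and a paralog number. There were 39 such members among the 58735 genes of the count table, with 11 in HOXA, 10 in HOXB, 9 in HOXC and 9 in HOXD. A further row carrying the symbol HOXC5, annotated as a processed transcript and holding 0 counts, was left out. RNA-Seq was performed on 3 DMSO control libraries and 3 AS1842856 libraries, lettered A, B and C in each group, and treatment lasted 48 h. The sample labels give a dose of 200 nM and the written methods a dose of 1 µM, so the dose behind these libraries was not settled. No label gives a genetic change in either group, and all libraries come from this 1 line. The libraries are described as biological replicates, but no source says whether they were separate cultures grown on separate days, so p-values measure the spread between these libraries.

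HOX genes encode homeodomain transcription factors that give positional identity along the body axis. In each cluster the genes lie in order of paralog number, and genes of low number are used toward the head while those of high number are used toward the tail and the ends of the limbs. Adult cells often keep part of the HOX pattern of the body region they came from, and the pattern is held by Trithorax complexes that keep genes active and Polycomb complexes that keep them silent. HOX proteins bind DNA together with PBX and MEIS partner proteins, and retinoic acid is a classical inducer of the clusters.

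AS1842856 treatment split the HOX genes by cluster. Every HOXA and HOXB gene that changed was higher with the inhibitor, and every HOXC gene that changed was lower. Of the 20 members that passed the filter on low counts, 19 changed at an adjusted p under 0.05 (edgeR quasi-likelihood test, adjusted over all 14338 genes tested), beside 56.0% of all genes tested. The 11 members that rose were HOXA9, HOXA10, HOXA11 and all HOXB genes from HOXB2 to HOXB9, where 27.6% of all genes tested rose. The 8 members that fell were HOXC4, HOXC6 and HOXC8 to HOXC13, where 28.4% of all genes tested fell. HOXA13 was the 1 tested member that did not pass. With DESeq2 the same numbers of members passed, 11 higher and 8 lower, beside 35.8% of the genes it tested. In CPM, 19 of the 20 tested members had groups that did not overlap, beside 59.9% of all genes tested. The median log2 fold change of the tested members was 0.62 in HOXA, 0.59 in HOXB and -0.78 in HOXC, beside 0.00 over all genes tested, of which the 5th and 95th percentiles were -1.14 and 0.91. With BT549 RNA measured in bulk, fewer cells making a transcript and less of it per cell cannot be told apart.

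**Figure D1:**
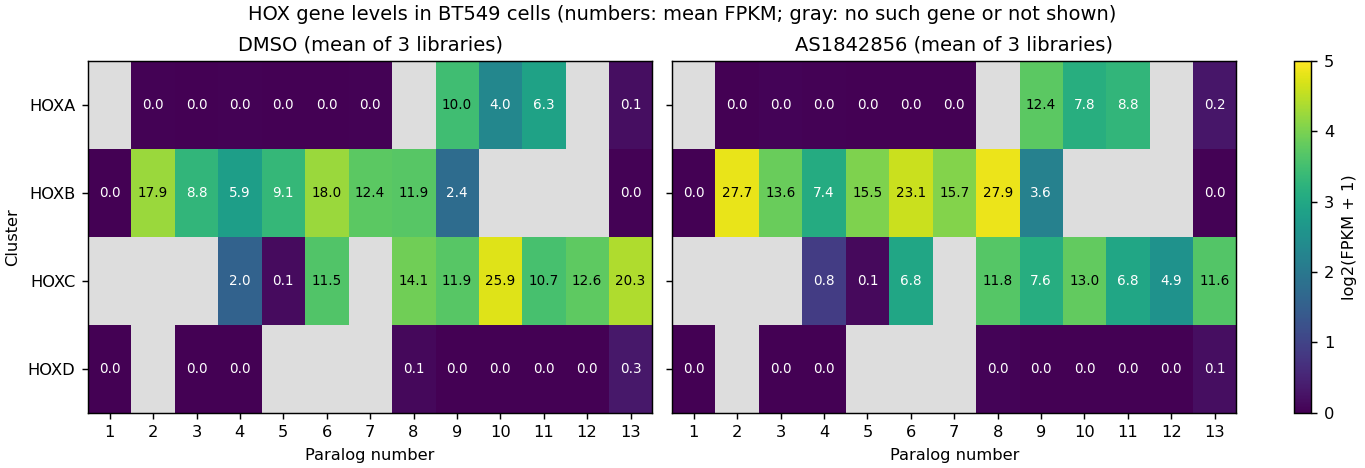
Mean FPKM (fragments scaled by transcript length and library size) of each HOX gene in DMSO (left) and AS1842856 (right), by cluster (rows) and paralog number (columns), with color on a log2(FPKM + 1) scale and gray for no such gene or a gene not shown. HOXB8 went from 11.9 to 27.9 and HOXC12 from 12.6 to 4.87, while HOXD and the head-side genes of HOXA stayed dark in both panels.

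The remaining 19 members had too few counts to test. In 14 of them no library held more than 3 counts, among them HOXA2, HOXA4, HOXA5, HOXA6, HOXA7, HOXB1, HOXD1, HOXD3, HOXD4, HOXD9, HOXD10, HOXD11 and HOXD12. Of these, 7 had no counts at all (HOXA6, HOXB1, HOXD1, HOXD3, HOXD4, HOXD11 and HOXD12). HOXA3, HOXB13, HOXC5 and HOXD8 reached at most 5 counts in any library. HOXD13, a gene of the digits and genital tract, had 15, 8 and 10 counts in the DMSO libraries and 5, 3 and 8 in the AS1842856 libraries. Thus BT549 cells used the tail-side end of HOXA, nearly all of HOXB and HOXC, and almost none of HOXD.

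Levels were compared between genes by FPKM, which is divided by gene length. In DMSO the highest member was HOXC10, at 25.9 ± 0.534 FPKM (SD, n = 3), above 86.9% of the genes tested. It was followed by HOXC13 at 20.3 ± 0.751, and then by HOXB6 at 18.04 ± 0.802 and HOXB2 at 17.94 ± 0.493 FPKM, whose means differed by less than either SD. The lowest called members were HOXB9 at 2.42 ± 0.105 and HOXC4 at 1.96 ± 0.172 FPKM. With AS1842856 the order changed, and HOXB8 at 27.9 ± 1.44 and HOXB2 at 27.7 ± 1.498 FPKM led, again separated by less than either SD. HOXC10 then stood at 12.95 ± 0.507 FPKM, below HOXB8, HOXB2, HOXB6, HOXB7, HOXB5 and HOXB3.

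Library totals ranged from 15289500 to 22981832 counts, and no library stood apart by its scaling factor (0.995 to 1.01). Of 7 mesenchymal markers all were expressed, with a summed level of 4383 to 4515 CPM (counts scaled to library size by TMM) in DMSO and 3843 to 3915 CPM with the inhibitor. Among them 5 fell, led by AXL (log2 fold change -1.65), while FN1 and ZEB1 rose by 1.13 and 0.50. Of 8 luminal markers, ESR1, PGR, CDH1 and EPCAM were at or near 0 (at most 8 counts in a library), and the summed level went from 125 to 129 CPM in DMSO to 65.3 to 74.2 CPM. The keratin genes KRT8 (-3.31) and KRT18 (-3.30) fell, and FOXA1 fell too (-1.11; DESeq2 adjusted p = 0.0689; not called without DMSO B or AS1842856 B, at -0.93 and -0.85), while GATA3 rose by 0.28. Of 7 blood and endothelial markers 1 was tested, PTPRC, which rose by 1.48. Their summed level was 1.08 to 2.02 CPM in DMSO and 3.64 to 4.65 CPM with the inhibitor, and CD3E and CDH5 had no counts. The part of these markers in the HOX changes was not tested.

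In HOXA (chromosome 7, minus strand, GRCh38), the expressed genes were those of the tail-side end, and all 3 that were called rose. HOXA10 (chr7:27170591-27180261), a regulator of blood progenitors and of the uterine lining, changed most. Its level was 12.9, 14.6 and 16.8 CPM in DMSO A, B and C (284, 224 and 312 counts) and 27.3, 29.8 and 30.1 CPM with AS1842856 (455, 680 and 536 counts). The groups did not overlap, and the lowest treated library was well above the highest control. HOXA10 rose 1.98-fold (log2 fold change 0.98, SE 0.09, adjusted p = 5.58e-23). About 16.4% of its exon length is overlapped by HOXA10-AS on the other strand, which held 403 counts over all libraries beside 2491 for HOXA10.

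HOXA9, the blood stem cell and leukemia gene next to it, had 670, 472 and 568 counts in DMSO and 630, 853 and 679 with the inhibitor. In CPM these were 30.5, 30.7 and 30.6 against 37.8, 37.4 and 38.1 CPM, a small shift with little spread in either group (log2 fold change 0.30, SE 0.07, adjusted p = 4.51e-05). HOXA11, which acts in limb, kidney and uterus, had 316, 218 and 287 counts in DMSO and 313, 482 and 382 with the inhibitor (0.48, SE 0.09, adjusted p = 2.31e-06). The groups did not overlap in CPM for either gene. Up to 31.1% of the HOXA11 exon length is shared with HOXA11-AS on the other strand, and 13.9% of the HOXA9 exon length with HOXA10-AS. HOXA13, the last gene of the cluster and a regulator of digits and genital tract, held only 19, 15 and 6 counts in DMSO and 16, 29 and 25 with the inhibitor. Its groups overlapped in CPM, and its log2 fold change of 0.76 had an SE of 0.38 (adjusted p = 0.0806) and was 0.40 without DMSO C (adjusted p = 0.436).

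In HOXB (chromosome 17, minus strand), all 8 expressed genes rose, and none of the 8 had overlapping groups, where 29.5% of all genes tested were higher without overlap. HOXB8 (chr17:48611377-48614939), which keeps myeloid progenitors immature, changed most of all HOX genes that rose. Its level was 23.5, 24.5 and 25.9 CPM in DMSO (515, 376 and 482 counts) and 57.2, 54.9 and 60.9 CPM with AS1842856 (953, 1254 and 1086 counts). The treated libraries lay far above the controls without overlap, a 2.34-fold rise (log2 fold change 1.23, SE 0.07, adjusted p = 3.75e-48). No exon of another annotated gene overlaps it.

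The HOXB8 transcript is also known as a target that miR-196 cleaves, and the miRNA genes lie inside the HOX clusters. The mature sequences and the HOXB8 stretch are shown because HOXB8 moved furthest of the genes that rose. In the miRNAs, capitals mark the seed (bases 2 to 8). In the HOXB8 stretch the capital marks the 1 of 22 positions without a strict match to miR-196a-5p (A with U or T, G with C). All are written 5′ to 3′, the miRNAs from RefSeq (GRCh38.p14) and the stretch from the GENCODE 29 transcript.
hsa-miR-196a-5p: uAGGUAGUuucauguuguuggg
hsa-miR-196b-5p: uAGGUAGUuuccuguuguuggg
hsa-miR-10a-5p: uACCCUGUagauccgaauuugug
HOXB8 stretch: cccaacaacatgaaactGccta

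The first miRNA is encoded at chr17:48632532-48632553 (minus strand) within the HOXB7 gene span and at chr12:53991762-53991783 (plus strand) within the HOXC6 gene span. The second is encoded at chr7:27169528-27169549 (minus strand) in a HOXA9 exon, and miR-10a at chr17:48579904-48579926 (minus strand) in the untranslated part of a HOXB4 exon. The 2 miR-196 forms share their seed, and miR-10a has another. The HOXB8 stretch lies at chr17:48612770-48612791 in its 3′ untranslated region, 410 bases after the stop codon. Of 19669 genes with a protein-coding transcript, HOXB8 was the 1 gene with at least 19 of 22 positions matched, and in the other HOX genes the best stretch matched 12 to 15. The seed was searched over whole protein-coding transcripts and not in the 3′ untranslated region alone. An exact match to the seed occurred in 3 of the 11 HOX genes that rose, in 1 of the 8 that fell and in 18.3% of all genes. HOXB8 was not among the 3, and the 1 position of its stretch counted as a mismatch lies opposite the seed. It is a G facing a U, which can form a wobble pair in RNA but was not scored as a match. These libraries did not measure mature miRNAs, and the hairpin genes held 0 to 5 counts in any library, so the level of miR-196 is unknown here.

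Next to HOXB8 on either side, the changes were smaller. HOXB7, a gene tied to breast cancer growth, had 450, 268 and 355 counts in DMSO and 358, 580 and 457 with the inhibitor (log2 fold change 0.34, SE 0.09, adjusted p = 0.000234). HOXB9, a posterior gene that also acts in the mammary gland, had 131, 100 and 118 counts against 150, 205 and 174 (0.56, SE 0.13, adjusted p = 0.00011). In CPM the lowest treated library exceeded the highest control for both genes, by about 1 CPM in HOXB7 (21.5 against 20.5 CPM).

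The head-side genes of HOXB rose as well. HOXB5, a gene of gut neural crest and vessels, had 401, 315 and 318 counts in DMSO and 549, 713 and 556 with the inhibitor, the second largest rise of the cluster (log2 fold change 0.78, SE 0.08, adjusted p = 7.49e-18). HOXB3, a hindbrain gene, went from 1391, 1019 and 1265 counts to 1695, 2278 and 1847 (0.63, SE 0.05, adjusted p = 1.3e-28). HOXB2, which patterns the hindbrain and facial nerve, went from 954, 639 and 770 counts to 1108, 1393 and 1206 (0.62, SE 0.06, adjusted p = 9.04e-22). These 3 genes each stood higher in all treated libraries in CPM than in any control.

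HOXB4 and HOXB6 rose less, to about the extent of HOXB7. HOXB4, which expands blood stem cells, had 534, 322 and 409 counts in DMSO and 456, 666 and 488 with the inhibitor (log2 fold change 0.31, SE 0.08, adjusted p = 0.000272). HOXB6 had 995, 722 and 920 counts against 1032, 1287 and 1133 (0.36, SE 0.06, adjusted p = 7.39e-09). In CPM, both groups were again apart. HOXB3 and HOXB6 share 433 bases of exon on the same strand, and 16.3% of the HOXB6 exon length is overlapped by HOXB-AS3 on the other strand, so some reads of these genes may be counted for a neighbor.

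**Figure D2:**
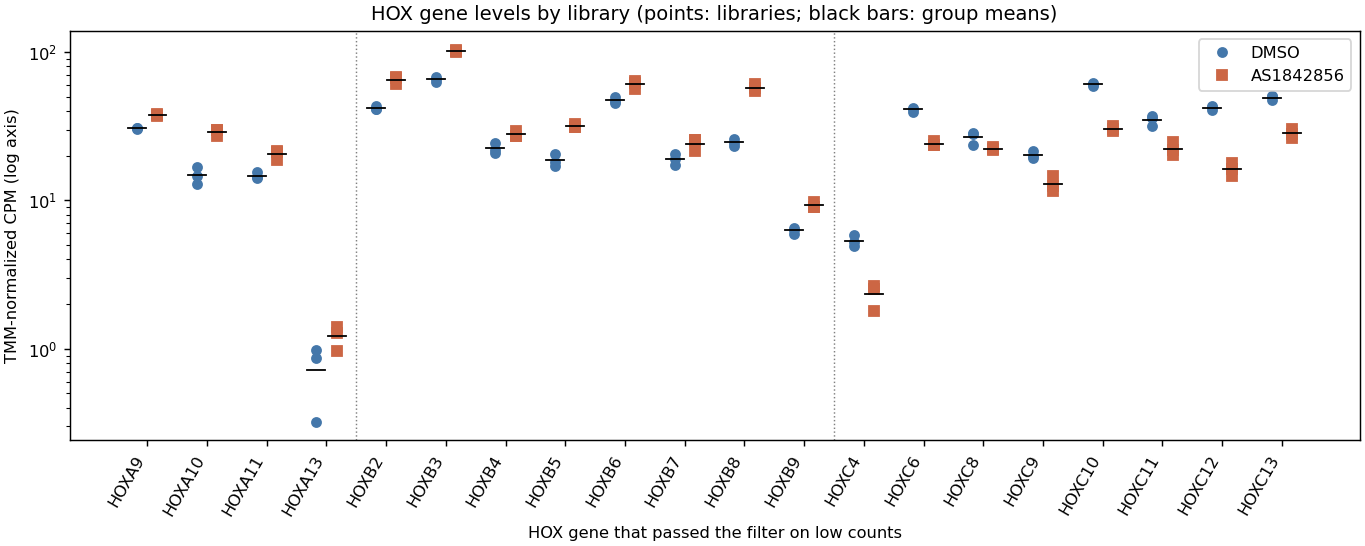
CPM (log axis, scaled by TMM) of the 20 tested HOX genes in each DMSO (circle) and AS1842856 (square) library, with black bars for the mean of 3 libraries and dotted lines between clusters. The squares lie above the circles throughout HOXA9 to HOXA11 and HOXB and below them throughout HOXC, as in HOXB8 (24.6 to 57.7 CPM) and HOXC12 (42.2 to 16.4 CPM).

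In HOXC (chromosome 12, plus strand), all 8 expressed genes fell without overlap between groups, where 30.3% of all genes tested were lower without overlap. Of the 8, 7 fell by at least 0.5 on the log2 scale and 3 by at least 1, beside 13.9% and 6.33% of all genes tested. HOXC12 (chr12:53954834-53958956), a posterior gene of the tail and limb ends, fell furthest. Its level was 40.9, 43.4 and 42.4 CPM in DMSO (897, 666 and 788 counts) and 16.4, 14.7 and 18.001 CPM with AS1842856 (273, 335 and 321 counts). The highest treated library was below every control by more than 20 CPM, and the log2 fold change was -1.37 (SE 0.08, adjusted p = 1.31e-44).

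HOXC10 (chr12:53985065-53990279), a lumbar motor neuron gene and the most abundant HOX transcript in DMSO by FPKM, fell to 0.499 times its control level. It stood at 59.3, 61.3 and 61.7 CPM in DMSO (1302, 942 and 1147 counts) and at 30.3, 29.2 and 31.6 CPM with the inhibitor (505, 667 and 564 counts). The 3 libraries of each group lay close together, and the log2 fold change was -1.002 (SE 0.06, adjusted p = 8.88e-40). HOXC13, which drives hair keratin genes, had 1103, 778 and 878 counts in DMSO and 470, 605 and 542 with the inhibitor (-0.80, SE 0.07, adjusted p = 4.55e-26). HOXC11, the gene between HOXC12 and HOXC10, had 794, 486 and 694 counts against 364, 565 and 359 (-0.65, SE 0.08, adjusted p = 8.21e-15). No treated library reached the lowest control of either gene in CPM.

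On the head side of HOXC10, HOXC9, HOXC6 and HOXC4 fell as well. HOXC9, which sets thoracic motor neuron identity, had 472, 295 and 368 counts in DMSO and 193, 286 and 261 with the inhibitor (log2 fold change -0.65, SE 0.10, adjusted p = 8.66e-10). HOXC6, a trunk gene expressed in mammary tissue, had 927, 638 and 737 counts against 395, 575 and 423 (-0.76, SE 0.07, adjusted p = 1.72e-21). HOXC4 (chr12:54016931-54056030), a gene of lymphoid cells and the least abundant called member, had 129, 81 and 92 counts against 30, 58 and 47 (-1.20, SE 0.19, adjusted p = 1.35e-08). HOXC4 shares 17.8% of its exon length with HOXC6 on the same strand, and HOXC6 held 3695 counts over all libraries beside 437 for HOXC4. How many HOXC4 reads lie in the shared part was not measured, so its counts are uncertain.

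HOXC8 (chr12:54009106-54012362), a gene of the brachial cord and ribs, changed least. It stood at 28.7, 23.6 and 28.1 CPM in DMSO (630, 362 and 523 counts) and at 22.1, 22.9 and 22.0 CPM with the inhibitor (368, 524 and 392 counts). DMSO B came within 1 CPM of AS1842856 B, the highest treated library, so the groups were apart only narrowly. The log2 fold change was -0.27 (SE 0.08, adjusted p = 0.00232), and it ranged from -0.35 to -0.22 as each library was left out. On log2(FPKM + 1) with limma and no filter on low values, HOXC8 no longer passed (adjusted p = 0.0648).

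**Figure D3:**
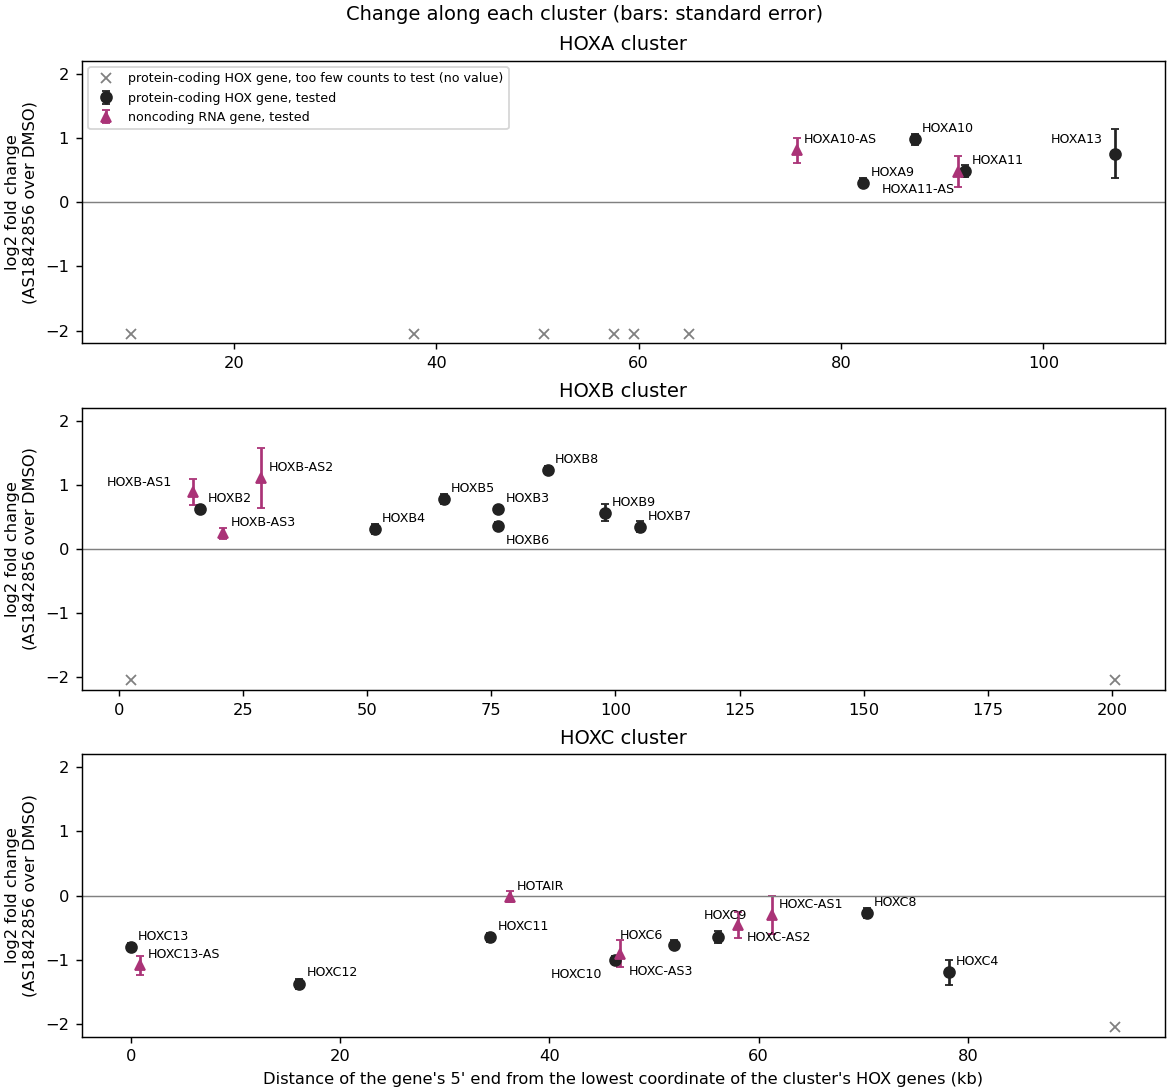
Log2 fold change (AS1842856 over DMSO, bars are the standard error) of each tested protein-coding HOX gene (circle) and cluster noncoding RNA (triangle) against the distance in kb of its 5′ end from the lowest coordinate of the cluster's HOX genes. Crosses mark genes with too few counts and carry no value. HOXB8 (1.23) and HOXC12 (-1.37) are the extremes. HOTAIR (-0.02) lies at 0, with its 5′ end just past that of HOXC11 on the HOXC10 side.

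Within their own clusters, HOXB8 and HOXC8 were set against their neighbors, a comparison chosen after the values were seen. HOXB8 counts were 11.1 ± 0.497% of those of the other tested HOXB genes in DMSO and 17.99 ± 0.483% with the inhibitor. HOXC8 counts were 10.55 ± 1.07% of those of the other tested HOXC genes in DMSO and 16.3 ± 0.703% with the inhibitor. Both percentages were higher in every treated library than in any control, since HOXB8 had the largest rise and HOXC8 the smallest fall of its cluster. HOXA10 counts were 48.3 ± 6.31% of those of HOXA9 in DMSO and 77.0 ± 4.12% with the inhibitor. HOXB8 counts were 130 ± 13.8% of those of HOXB7 in DMSO and 240 ± 25.1% with the inhibitor. In all 4 ratios the groups did not overlap, and each gave an exact two-sided permutation p of 0.1, the smallest that 3 against 3 libraries allow. The same p was found for all 13 ratios examined (adjusted p = 0.1).

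Summed over genes, the clusters lay apart in opposite directions while the HOX total changed little. HOXB went from 246 ± 2.71 to 378 ± 11.5 CPM, a ratio of 1.53, and HOXA from 61.0 ± 2.31 to 88.7 ± 3.10 CPM, a ratio of 1.46. HOXC went from 281 ± 4.06 to 159 ± 3.68 CPM, a ratio of 0.567. The sum over all members was 589, 583 and 595 CPM in DMSO and 620, 615 and 645 CPM with the inhibitor, a ratio of 1.06. All of these groups were apart, and each p was 0.1 by the exact permutation test, the smallest possible (adjusted p = 0.1 over the 4 clusters and the total). For HOXB and HOXC the sums had to lie apart, as all tested genes of each moved in the same direction without overlap. HOXD summed to 13 to 19 counts per DMSO library and 7 to 8 per treated library (0.840 against 0.392 CPM, exact permutation p = 0.1), mostly from HOXD13 and HOXD8.

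As shares of all HOX counts, HOXC was the largest cluster in DMSO and HOXB with AS1842856. HOXC held 48.3%, 47.5% and 47.3% in the DMSO libraries and 25.2%, 25.7% and 25.3% in the treated libraries. HOXB held 41.8 ± 0.264% in DMSO and 60.4 ± 0.707% with the inhibitor, and HOXA 10.3 ± 0.334% and 14.2 ± 0.428%. HOXD held 0.143% and 0.0624%. Per length the shift was alike, with HOXC going from 50.4 ± 0.477% to 27.9 ± 0.277% of summed HOX FPKM.

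**Figure D4:**
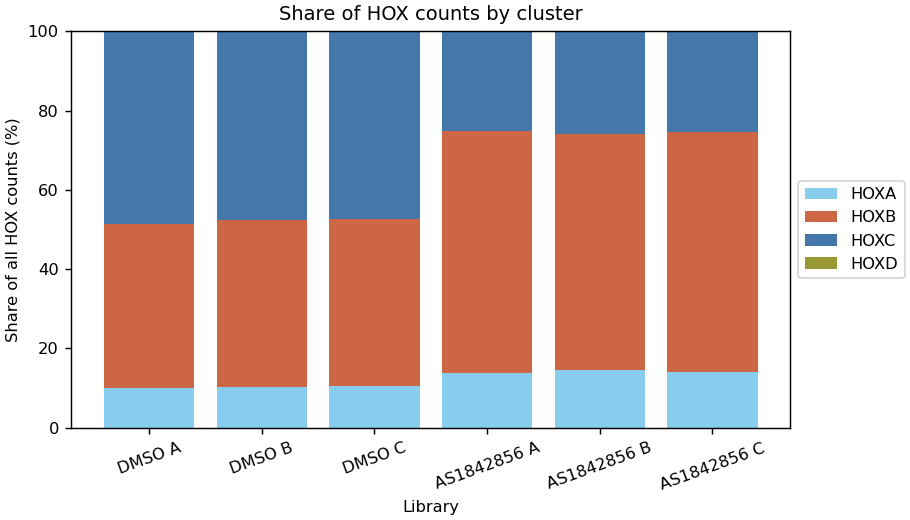
Share (%) of all HOX counts held by each cluster in each library. HOXB takes 41.8% on average in DMSO and 60.4% with AS1842856, HOXC takes 47.7% and 25.4%, and HOXD, at under 0.15%, is too thin to be seen.

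Genes of the same paralog number arose by duplication of 1 ancestral cluster and have related homeodomains, so they were compared across clusters. In each group with tested genes from HOXC and from HOXA or HOXB, the HOXC gene fell and a partner rose, except in group 13, where HOXA13 did not pass. The summed FPKM of group 6 was 29.6 ± 0.432 in DMSO and 29.9 ± 1.19 with the inhibitor (exact permutation p = 0.7). That of group 4 was 7.91 ± 0.610 and 8.27 ± 0.355 (p = 0.4, exact), that of group 9 was 24.4 ± 0.596 and 23.6 ± 1.14 (p = 0.3, exact) and that of group 11 was 16.99 ± 1.17 and 15.6 ± 0.958 (p = 0.2, exact). In these 4 groups the sums of the treated and control libraries overlapped, although each tested gene in them had changed.

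For paralog groups 8, 10, 12 and 13 the sums lay apart. Group 8 went from 26.1 ± 1.62 to 39.7 ± 1.17 FPKM, with HOXB8 rising far more than HOXC8 fell. Group 10 went from 29.9 ± 1.03 to 20.7 ± 0.679 FPKM, with HOXC10 falling more than HOXA10 rose. Group 12, of which HOXC12 was the 1 member expressed, went from 12.6 ± 0.360 to 4.87 ± 0.493 FPKM, and group 13 from 20.7 ± 0.854 to 12.03 ± 0.921 FPKM. Groups 2, 3, 5 and 7, with a single tested HOXB gene each, followed that gene. Their sums, and that of group 12, had to lie apart, as their 1 tested gene did not overlap between treatments. The p-values of these sums are no further test. For the sums of groups 2, 3, 5, 7, 8, 10, 12 and 13 the libraries of the 2 treatments did not overlap (p = 0.1, exact, the smallest possible; adjusted p = 0.163 over the 13 groups).

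The change of balance was also read within each library, as the counts of a HOXC gene over those of its paralog, where library depth and scaling cancel. HOXC10 counts were 458%, 421% and 368% of HOXA10 counts in DMSO and 111%, 98.1% and 105% with the inhibitor. HOXC8 counts were 122%, 96.3% and 109% of HOXB8 counts in DMSO and 38.6%, 41.8% and 36.1% with the inhibitor. The libraries of the groups were far apart in both. In every pair read here the HOXC gene fell and its paralog rose, without overlap in CPM. Groups of these ratios therefore had to lie apart, and the ratios are no further test.

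The other pairs moved the same way. HOXC4 over HOXB4 went from 23.9 ± 1.34% to 8.31 ± 1.57%, HOXC6 over HOXB6 from 87.2 ± 6.60% to 40.1 ± 3.996%, and HOXC9 over HOXB9 from 322 ± 33.9% to 139 ± 10.7%. HOXC9 over HOXA9 went from 65.9 ± 4.09% to 34.2 ± 3.95%, and HOXC11 over HOXA11 from 239 ± 14.4% to 109 ± 13.2%. Since counts are not divided by gene length, these percentages compare libraries and not the 2 genes of a pair.

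**Figure D5:**
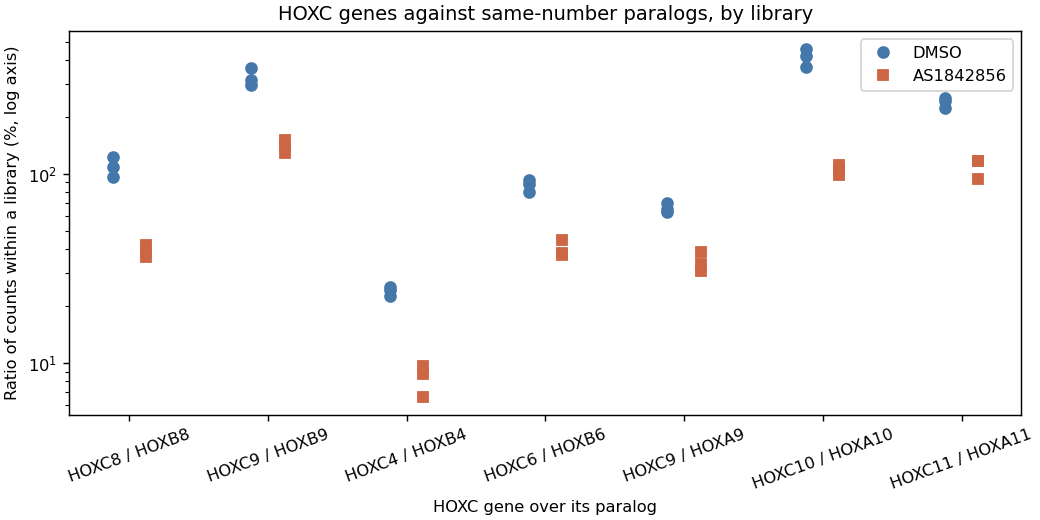
Counts of a HOXC gene as a percentage of the counts of a same-number HOXA or HOXB gene in each DMSO (circle) and AS1842856 (square) library, on a log axis. In all 7 pairs the squares lie below the circles, as in HOXC10 over HOXA10, which goes from a mean of 416% to 105%.

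Noncoding RNAs transcribed from the clusters were examined next. Of 24 found, 10 were tested, of which 4 rose, 2 fell and 4 did not pass, where 56.0% of all genes tested were called. The antisense RNAs of HOXA and HOXB that changed rose, as their clusters did. HOXA10-AS had 53, 42 and 49 counts in DMSO and 80, 98 and 81 with the inhibitor (log2 fold change 0.81, SE 0.20, adjusted p = 0.000187), and HOXB-AS1 had 45, 38 and 53 against 72, 108 and 81 (0.89, SE 0.20, adjusted p = 4.72e-05). HOXB-AS2 (1.10, SE 0.46, adjusted p = 0.0335) and HOXB-AS3 (0.24, SE 0.08, adjusted p = 0.00664) rose too, but neither passed with DESeq2 (adjusted p = 0.199 and 0.0809). Without DMSO A the value of HOXB-AS3 was 0.12 and it no longer passed, and leaving out DMSO A, DMSO C, AS1842856 A or AS1842856 B ended the call of HOXB-AS2 (values 0.68 to 1.15).

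In HOXC, HOXC13-AS and HOXC-AS3 fell with their neighbors. HOXC13-AS had 187, 138 and 163 counts in DMSO and 70, 103 and 64 with the inhibitor (log2 fold change -1.08, SE 0.15, adjusted p = 2.94e-11), and HOXC-AS3 had 118, 60 and 79 against 42, 75 and 24 (-0.90, SE 0.21, adjusted p = 6.24e-05; not passing with limma on log2(FPKM + 1) and no filter, adjusted p = 0.0742). HOXC-AS2 (-0.46, adjusted p = 0.0505), HOXC-AS1 (-0.30, adjusted p = 0.41) and HOXA11-AS (0.48, adjusted p = 0.088) did not pass. Without DMSO A the value of HOXA11-AS was 0.85 and it passed, and HOXC-AS2 passed without DMSO C or AS1842856 C (-0.58 in both). The use of strand in counting is not given in the sources used here, so reads of these RNAs and of the coding genes opposite cannot be told apart.

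HOTAIR, a long noncoding RNA that lies mostly between HOXC11 and HOXC12 and is known for binding chromatin regulators, did not follow its neighbors. It had 457, 379 and 368 counts in DMSO (20.8, 24.7 and 19.8 CPM) and 324, 516 and 390 counts with the inhibitor (19.4, 22.6 and 21.9 CPM). The groups overlapped, with a log2 fold change of -0.02 (SE 0.09, adjusted p = 0.876). HOTAIR counts were 51.5 ± 5.13% of HOXC12 counts in DMSO and 131 ± 19.6% with the inhibitor, and 62.9 ± 13.3% and 96.3 ± 10.7% of HOXC11 counts. Neither ratio overlapped between groups (p = 0.1 each, exact permutation test, the smallest possible), and both were chosen after the values were seen.

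The coding genes that flank the clusters changed in both directions and less. Of 12 tested, 2 rose, 6 fell and 4 did not pass, with log2 fold changes from -0.46 to 0.55 and a median of -0.08. Among all genes tested, 27.6% rose and 28.4% fell. Beside HOXA, SKAP2 rose (0.55, adjusted p = 0.0489; DESeq2 adjusted p = 0.175) and HIBADH fell (-0.27, adjusted p = 0.00369). Leaving out any library but AS1842856 C ended the call of SKAP2 (values 0.45 to 0.63), and leaving out AS1842856 B ended that of HIBADH (-0.22). Beside HOXB, CALCOCO2 fell (-0.46, adjusted p = 1.37e-09), where the HOXB genes rose. Beside HOXC, CALCOCO1 fell (-0.41, adjusted p = 4.69e-06). EVX1 and EVX2, the homeobox genes at the tail-side ends of HOXA and HOXD, had no counts, and none of the 6 ParaHox genes, relatives of the HOX genes outside the clusters, had enough counts to test.

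Among the 8 tested TALE homeodomain genes, which encode the DNA-binding partners of HOX proteins, 2 rose, 2 fell and 4 did not pass. Of all genes tested, 56.0% were called. PBX2 rose slightly (0.19, SE 0.05, adjusted p = 0.000376). Of the MEIS genes, which encode partners of both HOX and PBX proteins, MEIS1 and MEIS2 moved apart. MEIS3 did not pass (0.24, SE 0.32, adjusted p = 0.536). MEIS1 went from 5.88, 5.66 and 4.79 to 2.40, 2.54 and 2.97 CPM (-1.05, SE 0.19, adjusted p = 2.8e-07), and MEIS2 from 9.47, 8.79 and 7.64 to 20.9, 18.5 and 15.8 CPM (1.09, SE 0.11, adjusted p = 6.49e-19).

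Among chromatin factors that hold the HOX pattern, calls went in both directions, beside the 56.0% of all genes tested that were called. Of 28 genes of the Polycomb complexes, 11 rose, 11 fell and 6 did not pass, with a median log2 fold change of -0.03. CBX7, a reader of the Polycomb histone mark, fell by 1.31 and PCGF5 by 0.96, the latter at 0.788 to 2.995 CPM and not called without DMSO B or AS1842856 B (-0.71 and -0.73). JARID2, which guides the EZH2 complex, rose by 1.08 and CBX2 by 0.61. Of 17 Trithorax and other activating factors, 4 rose, 5 fell and 8 did not pass. KDM6B, an enzyme that removes the mark EZH2 writes, rose by 0.87 and DOT1L by 0.35, while PSIP1, which tethers MLL complexes to chromatin, fell by 0.69 and KAT6B by 0.59.

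Of 11 tested genes of the retinoic acid pathway, 2 rose and 8 fell, beside 27.6% and 28.4% of all genes tested. The median log2 fold change of the 11 was -0.34. CRABP2, which carries retinoic acid to its receptors, went from 0.455 to 0.646 CPM in DMSO up to 1.92 to 2.02 CPM (1.87, SE 0.36, adjusted p = 1.92e-06), and the retinol transporter gene STRA6 rose by 1.14. DHRS3, which reduces retinal to retinol, fell by 0.98. CYP26B1, which degrades retinoic acid, fell by 1.24 at 0.300 to 1.37 CPM, but did not pass with DESeq2 (adjusted p = 0.0641) or without DMSO C or AS1842856 A (-1.10 and -1.04).

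RefSeq promoter windows of 300 bases (250 before and 50 after a start) were at hand for 20 of the 39 members, including 4 of the 19 called genes, HOXA9, HOXA10, HOXA11 and HOXC4. They were searched on both strands for the forkhead motif GTAAACA, which FOXO factors bind, for the TCF/LEF motif CTTTGAT and for the HOX-PBX motif TGATTNAT. The forkhead motif was found in 3.42% of all 35116 windows, the TCF/LEF motif in 2.62% and the HOX-PBX motif in 2.82%. Of the 5 windows of called genes, 1 held a match. It was the forkhead motif of HOXC4, 195 bases before the start, in a window that HOXC5 shares. It lies in a noncoding part of a HOXC6 exon (chr12:54016682-54016710, GRCh38.p14, plus strand) and is printed with the motif in capitals, as the match that belongs to a gene that fell.
HOXC4 stretch: gagagaattggGTAAACAtggcgaccgcg
No HOX window held the TCF/LEF motif, and the HOX-PBX motif was found in those of HOXA2 and HOXD11, neither of them expressed. A match of letters does not show that a factor binds there.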

How the data were processed

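RNA-Seq was performed on 6 BT549 libraries. Reads were base-called with CASAVA and mapped with STAR per the methods; the submitters' processing notes also name Bowtie 0.12.2 and GRCh38 (hg38). The authors deposited raw read counts per gene and, in a table per library, FPKM, which the authors divided by gene length and library size (25015 genes listed). The counting tool and its use of strand are not given in the sources used here. All 58735 gene IDs were those of GENCODE 29 (Ensembl 94), used for symbols and positions, and FPKM followed its exon lengths.

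Counts were tested in R 4.3.3 with edgeR 4.0.16 (filterByExpr with minimum count 10 and total 15, TMM, glmQLFit robust, glmQLFTest, no covariate, Benjamini-Hochberg over 14338 genes, threshold 0.05). Sums and ratios were compared by exact two-sided permutation over libraries. Alternatives were DESeq2 1.42.0, other scaling and filters, a replicate block, limma 3.58.1 on log2(FPKM + 1) or log2(FPKM + 0.1), and leaving out each library. Scripts were tested on simulated data. Depth was 15289500 to 22981832 counts, and the common biological coefficient of variation between libraries of a group was 0.0374. Within each group, pairs of libraries had a chi-square per degree of freedom of 2.38 to 3.28, above the 1 of pure counting error, and were kept as separate samples.

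Every HOX gene was accounted for; of the other lists, up to 4 called genes of largest change were named, and of the noncoding RNAs all that were tested. The members and lists were chosen with earlier results of these data known. RefSeq protein sequences were not used here, and a few genes are counted but not reported here by name.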

Additional observations from a re-analysis of the deposited data

How the results depend on the processing

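In all 15 alternatives 11 HOX genes rose, and in 14 of them 8 fell. The exception was limma on log2(FPKM + 1) with no filter on low values, with 7, where HOXC8 did not pass (-0.24, adjusted p = 0.0648). HOXA13 passed in none of the alternatives that tested it, and had no value with a mean of at least 50 counts or a mean FPKM of at least 0.5. The number of genes called overall ranged from 6523 to 8030, and from 7427 to 7678 as each library was left out, beside 8029. The ratio of summed levels stayed between 1.43 and 1.49 in HOXA, 1.51 and 1.56 in HOXB, 0.559 and 0.572 in HOXC, 0.433 and 0.517 in HOXD and 1.05 and 1.07 in total, where leaving out libraries and repeating the alternatives for the other named genes were choices made after seeing the data. HOTAIR ranged from -0.084 to 0.068 as each library was left out, turning sign without DMSO B and without AS1842856 A (0.038), and passed in none of these. The letters A, B and C did not pair the libraries (correlations of same-letter deviations 0.042, -0.012 and -0.0033), and a replicate block gave 11 HOX genes higher, 8 lower and 7862 genes called. Of the other named genes, the replicate block ended the calls of HOXB-AS2 (adjusted p = 0.0596) and SKAP2 (adjusted p = 0.0578). HOXB-AS2, HOXB-AS3, HOXC-AS3, PCGF5, CYP26B1, SKAP2 and FOXA1 also lost their calls with limma on log2(FPKM + 1) and no filter (adjusted p = 0.0742 to 0.17). Depth limits what can be said of HOXD and of the head-side HOXA genes.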
